A study of Mus musculus with 9 samples.

Results

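Zic1, Zic2, Zic4 and Zic5, transcription factor genes of the Zic family, were followed in whole mouse cochlea by every probe set whose platform annotation names exactly 1 of them. They are 4 of 18193 genes so named, and their probe sets 8 of the 45037 of the array table, with 2 for Zic1, 1 for Zic2, 2 for Zic4 and 3 for Zic5. All mice were male C57BL/6 and were housed singly. CR mice were 15 months old and had received 62 kcal per week since 2 months of age, which is 74% of the control intake. MC mice were 15-month-old controls and YC mice 4-month-old controls, both fed 84 kcal per week. Each of the 9 arrays, 3 per group, carried RNA from a pool of 4 cochleae of 2 mice, so that the spread between arrays of a group is the spread between such pools. The labels describe no genetic modification. The 4 genes were chosen by family after their CR, MC and YC signals and the 3 group differences had been seen, so these values are given as a description, with no p-value for any of them.

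Zic proteins carry a block of C2H2 zinc fingers that resembles that of the Gli proteins, the transcriptional effectors of hedgehog signalling, and they take their name from the cerebellum, where granule neurons express them. They act in patterning of the dorsal neural tube, in neural crest formation and in the meninges. Human losses at the locus of ZIC1 and ZIC4 have been linked to Dandy-Walker malformation of the cerebellum, and human ZIC2 mutations to holoprosencephaly. In chick and mouse embryos Zic genes are also transcribed in the mesenchyme around the developing ear.

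The family lies in neighbouring pairs in the RefSeq annotation of assembly GRCm38.p6. Zic1 and Zic4 are neighbours on chromosome 9 with no annotated gene between them. Zic5 and Zic2 are neighbours on chromosome 14 with 1 non-coding gene, 2610035F20Rik, between them. RefSeq promoter windows, which run from 250 bases before to 50 bases after a gene start, were at hand for Zic1, Zic4 and Zic5. Those of Zic1 and Zic4 are shown because these 2 neighbours, which are read in opposite directions from starts 3204 bases apart, had CR minus MC differences of opposite sign. Letters run 5′ to 3′ along each gene's own strand, and capitals mark CpG dinucleotides. The Zic1 window is chr9:91365719-91366018 on the minus strand and the Zic4 window chr9:91368722-91369021 on the plus strand.
Zic1: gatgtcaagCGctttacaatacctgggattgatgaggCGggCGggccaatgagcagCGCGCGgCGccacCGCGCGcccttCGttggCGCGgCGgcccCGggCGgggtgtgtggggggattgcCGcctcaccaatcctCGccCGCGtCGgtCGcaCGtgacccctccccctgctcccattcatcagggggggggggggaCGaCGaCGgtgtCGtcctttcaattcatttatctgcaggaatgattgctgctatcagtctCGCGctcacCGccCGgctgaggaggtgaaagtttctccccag
Zic4: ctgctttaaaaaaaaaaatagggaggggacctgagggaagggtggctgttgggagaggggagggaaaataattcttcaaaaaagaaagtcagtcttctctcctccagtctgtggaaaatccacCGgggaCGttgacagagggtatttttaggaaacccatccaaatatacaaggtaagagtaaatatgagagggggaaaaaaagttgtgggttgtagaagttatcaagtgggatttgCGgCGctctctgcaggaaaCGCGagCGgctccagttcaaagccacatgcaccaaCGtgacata
The Zic1 window held 31 CpG dinucleotides at 65.3% GC, the Zic4 window 8 at 46.0% GC and the Zic5 window 15 at 62.7% GC. The median over all 32851 such windows was 7 CpG dinucleotides and 52.7% GC. The letters CCAAT, searched on both strands, occurred at 2 places in the Zic1 window and not in the Zic4 or Zic5 window. Of all windows, 37.4% hold them. Neither TATAAA, in 13.6% of windows, nor GGGTGGTC, a Gli-type site that Zic zinc fingers bind in vitro, in 0.807% of windows, was found in any of the 3, with both strands searched.

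Before the members' values, 1 property of the arrays needs stating. The 3 CR arrays and YC 1 had median deposited signals from 526.8 to 626.6, and the 3 MC arrays with YC 2 and YC 3 from 842.4 to 1103.9. These sets are called low-median and high-median arrays below. All CR arrays are low-median and all MC arrays high-median, so that in this comparison restriction and array class cannot be told apart, and only YC spans both. Log2 values below are log2(signal + 16) after quantile normalization, and differences are from a limma fit with their standard errors (SE). Marker lists of cochlear cells were set beside the signal filter, which kept 13702 of the 18193 named genes. As the filter keeps a fixed share of probe sets, passing it does not check the cochlear label. Past the signal filter were 15 of 16 fibrocyte genes, led by Car3 and Otos, 9 of 13 genes of the stria vascularis, led by Atp1b2 and Dct, and 9 of 18 hair and supporting cell genes, led by Otog and Sox2. The hair cell genes Slc26a5, Pou4f3, Gfi1, Strc and Cdh23 were below the filter. Others of the same list, Myo7a, Myo6, Otof, Atoh1 and Ush1c, passed it.

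Zic1, which in the mouse is required for a normally foliated cerebellum, had its highest signals in restricted cochleae by both probe sets. On 1423477_at the deposited signals were 25278, 9018 and 8578 on the CR arrays, against 4285, 2703 and 3486 on the MC arrays and 7666, 2271 and 3120 on the YC arrays. All CR arrays lay above all others, CR 1 far above CR 2 and CR 3, and YC 1 was next after them. Mean log2 values were 13.39 ± 0.82 in CR, 11.84 ± 0.37 in MC and 11.78 ± 0.83 in YC (SD, n = 3 each). The difference CR minus MC was 1.55 ± 0.47 (SE), which is 2.93-fold. It was 1.06 without CR 1, the array that moved it most.

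The second Zic1 probe set, 1439627_at, was also brightest on CR 1. Its deposited signals were 9705, 2333 and 3324 in CR, against 1368, 522.2 and 590.3 in MC and 2820, 646.3 and 922.3 in YC. CR and MC did not overlap, while YC 1 lay above CR 2. The difference CR minus MC was 2.64 ± 0.69 (SE), or 6.21-fold, and without CR 1 it was 2.05. MC and YC were the lower neighbours in both probe sets and overlapped in both, with MC minus YC at 0.06 ± 0.47 (SE) for 1423477_at and -0.68 ± 0.69 (SE) for 1439627_at. The first of these turned to -0.36 with arrays centred on their median and to -0.14 in the table as deposited. CR minus YC was 1.61 ± 0.47 (SE) without overlap for 1423477_at and 1.95 ± 0.69 (SE) with overlap for 1439627_at.

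**Figure D1:**
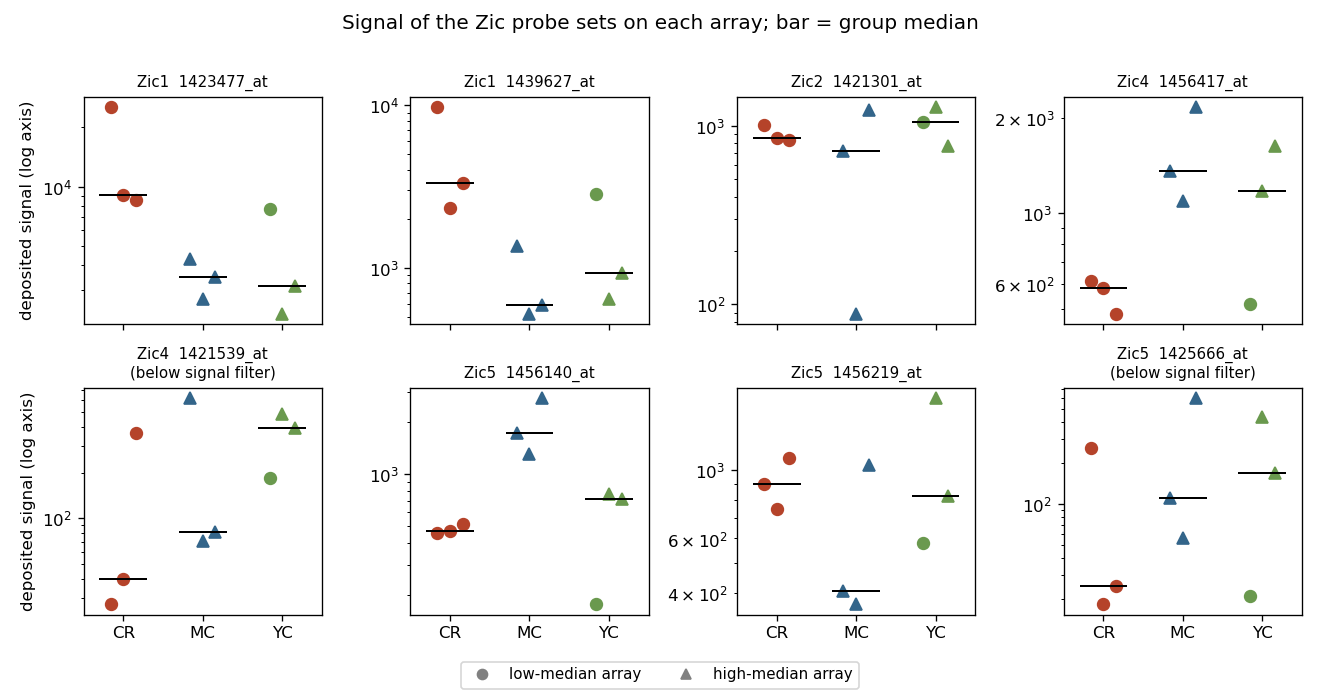
Deposited signal (log axis, own range in each panel) of the 8 Zic probe sets on each array, for CR, MC and YC from left to right, with circles for low-median and triangles for high-median arrays and a bar at each group median. Both Zic1 probe sets have the 3 CR arrays and YC 1 above the 5 high-median arrays, and Zic4 1456417_at has them below on this scale.

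Zic4, whose loss together with Zic1 gives cerebellar defects in mice, had lower signals in restricted cochleae by the probe set that passed the filter. On 1456417_at these were 611.6, 582.9 and 482.2 in CR, against 1365, 1091 and 2166 in MC and 518.5, 1175 and 1637 in YC. The CR arrays were all below the MC arrays, and YC 1 lay among the CR arrays on the deposited scale, below YC 2 and YC 3. Mean log2 values were 9.50 ± 0.25 in CR, 10.44 ± 0.55 in MC and 9.98 ± 0.60 in YC (SD, n = 3 each). CR minus MC was -0.94 ± 0.43 (SE), CR minus YC -0.48 ± 0.43 (SE) and MC minus YC 0.46 ± 0.43 (SE). CR minus MC was -0.64 without MC 3. Neighbours in the order MC, YC, CR overlapped, and only its ends did not.

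The other Zic4 probe set, 1421539_at, stayed below the filter with a mean log2 value of 7.51, against a limit of 8.95. Its signals were 27.2, 40 and 365 in CR, 616.8, 71.5 and 81.9 in MC and 184.7, 486.7 and 391.2 in YC. CR and MC each held 1 bright and 2 dim arrays, so that CR minus MC was -0.06 ± 0.95 (SE) in a fit without the filter. The 3 YC values lay closer together, with a log2 SD of 0.12, and MC minus YC was -1.27 ± 0.95 (SE), opposite in sign to that of 1456417_at.

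Zic2, needed in the mouse for forebrain and hindbrain patterning, was measured by 1421301_at alone. Signals were 1013, 852.5 and 832.2 in CR, against 717.2, 88.9 and 1216 in MC and 1047, 1266 and 767.8 in YC. A single MC array, MC 2, stood far below all the others, and the remaining 8 arrays lay between 717.2 and 1266. Mean log2 values were 10.07 ± 0.18 in CR, 8.55 ± 1.83 in MC and 9.88 ± 0.45 in YC (SD, n = 3 each). CR minus MC was 1.53 ± 0.76 (SE) with MC 2 and 0.50 without it, and MC minus YC was -1.33 ± 0.76 (SE) with MC 2 and -0.30 without it. CR minus YC was 0.19 ± 0.76 (SE) and turned to -0.16 in the table as deposited. The 3 groups overlapped in every pair.

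Zic5, known as a neural crest regulator in frog and mouse embryos, was the member whose probe sets disagreed most. On 1456140_at signals were 453.9, 469.8 and 516.6 in CR, against 1727, 1299 and 2752 in MC and 176.4, 766.8 and 720.2 in YC. MC arrays were above all others without overlap, while CR arrays lay between YC 1 and the other YC arrays on the deposited scale. CR minus MC was -1.49 ± 0.46 (SE), MC minus YC 1.96 ± 0.46 (SE) and CR minus YC 0.47 ± 0.46 (SE). The mean log2 value was 9.32 ± 0.09 in CR, 10.81 ± 0.61 in MC and 8.85 ± 0.61 in YC (SD, n = 3 each).

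Probe set 1456219_at of Zic5 ran the other way. Its signals were 900.2, 747.2 and 1094 in CR, against 403.5, 365.9 and 1039 in MC and 581.0, 1720 and 826.6 in YC. MC 1 and MC 2 were the lowest of the 9 arrays, and MC 3 lay within the ranges of CR and YC on the deposited scale. After quantile normalization MC 3, at a log2 value of 9.69, was below the lowest CR array at 9.83, so CR and MC no longer overlapped. CR minus MC was 1.29 ± 0.48 (SE), MC minus YC -1.10 ± 0.48 (SE) and CR minus YC 0.19 ± 0.48 (SE). The last turned to -0.056 in the table as deposited.

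The third Zic5 probe set, 1425666_at, was below the filter with a mean log2 value of 6.97. Its signals ranged from 18.2 to 257.1 in CR, from 55.9 to 597.9 in MC and from 20.9 to 435.9 in YC. All groups overlapped, and CR minus MC was -0.55 ± 1.05 (SE) and MC minus YC 0.01 ± 1.05 (SE). For Zic5 as a gene the CR minus MC differences therefore ran from -1.49 to 1.29, with 1 of 3 probe sets positive, and those of MC minus YC from -1.10 to 1.96, with 2 of 3 positive. Both Zic1 probe sets were positive and both Zic4 probe sets negative in CR minus MC and in CR minus YC. In MC minus YC, both genes had 1 positive and 1 negative probe set.

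**Figure D2:**
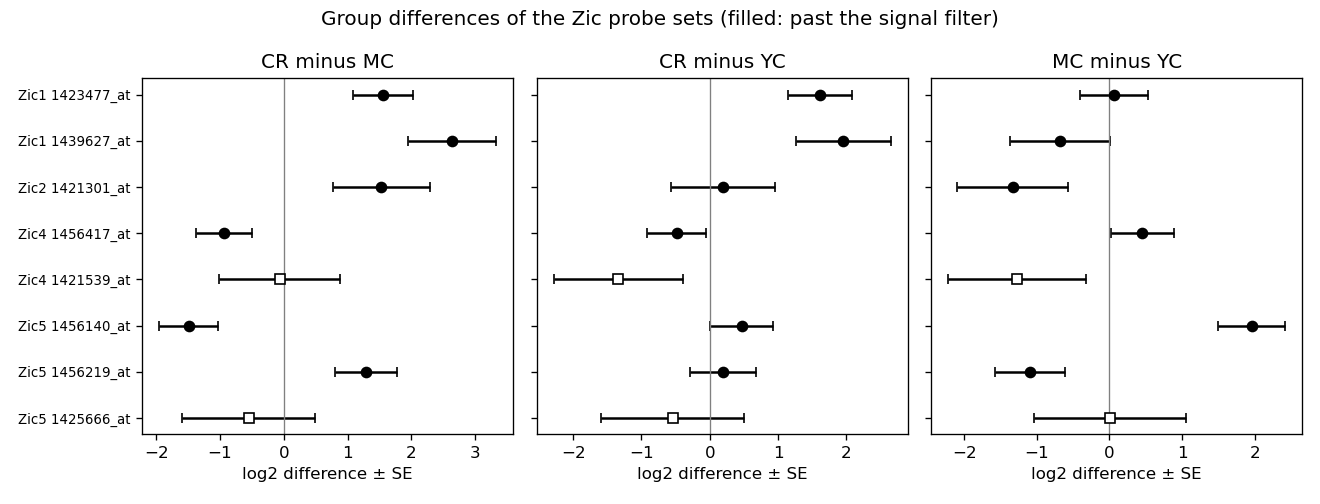
Log2 difference with its SE for each Zic probe set in CR minus MC, CR minus YC and MC minus YC, with open squares for the 2 probe sets below the signal filter. Zic1 lies to the right of 0 in both CR comparisons, and the Zic5 probe sets 1456140_at and 1456219_at lie on opposite sides of 0 in CR minus MC and in MC minus YC.

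Read across the 3 comparisons, 6 of the 8 probe sets passed the signal filter. CR and MC, MC and YC, and CR and YC share their samples pairwise, so these comparisons are not independent. In CR minus MC, 4 of the 6 were higher and 2 lower, with a median log2 difference of 1.41 against 0.08 over all 27022 probe sets tested. None of the 6 passed an adjusted p of 0.05 in limma, where 0.0925% of all probe sets did, and CR and MC did not overlap for 5 of the 6, beside 37.8% of all. In MC minus YC, 3 were higher and 3 lower, and the median was -0.31 against 0.02. None of the 6 and 0% of all probe sets passed, 915 of all having an unadjusted p under 0.05. The groups did not overlap for 1 of the 6, Zic5 1456140_at, and for 5.88% of all. In CR minus YC, 5 were higher and 1 lower, and the median was 0.33 against 0.08. None of the 6 and 0% of all passed, 2910 of all having an unadjusted p under 0.05, and 1 of the 6, Zic1 1423477_at, did not overlap, beside 20.5% of all. Since these contrasts were known when the genes were picked, nothing is read from the members' counts.

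Zic1 also divided the arrays by class. Both Zic1 probe sets were higher on all 4 low-median arrays than on all 5 high-median arrays, as were 11.2% of all probe sets tested, and low-median arrays exceeded high-median arrays by 1.57 for 1423477_at and by 2.52 for 1439627_at on the log2 scale. Within YC, YC 1 exceeded the mean of YC 2 and YC 3 by 1.33 and by 2.16 for these probe sets. For Zic4 1456417_at YC 1 was lower than that mean, with a difference of -0.61, and for Zic5 1456140_at with one of -1.02. With array class as a term, CR minus MC was 0.22 ± 0.71 (SE) for Zic1 1423477_at and 0.47 ± 0.998 (SE) for 1439627_at. It was -0.32 ± 0.75 (SE) for Zic4 1456417_at, -0.47 ± 0.73 (SE) for Zic5 1456140_at and 0.82 ± 1.39 (SE) for Zic2. For Zic5 1456219_at it was 1.58 ± 0.86 (SE), the one difference among the 6 probe sets past the filter that was no smaller with this term. Below the filter, Zic4 1421539_at was at 0.14 ± 1.76 (SE) and Zic5 1425666_at at 1.46 ± 1.82 (SE), both with the sign turned.

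Comparisons inside 1 array class were possible only against YC. Among low-median arrays, where YC 1 is the lone young array and is assumed to vary as the CR arrays do, CR minus YC was 0.76 ± 0.50 (SE) for Zic1 1423477_at, 0.58 ± 0.63 (SE) for Zic1 1439627_at and 1.14 ± 0.52 (SE) for Zic5 1456140_at. For Zic2 it was -0.35 ± 0.33 (SE), for Zic4 1456417_at -0.08 ± 0.44 (SE) and for Zic5 1456219_at 0.47 ± 0.37 (SE). Among high-median arrays MC minus YC was 1.36 ± 0.44 (SE) for Zic5 1456140_at and -1.10 ± 0.65 (SE) for Zic5 1456219_at, the same signs as over all arrays. It was 0.43 ± 0.33 (SE) and 0.02 ± 0.65 (SE) for the Zic1 probe sets, 0.21 ± 0.44 (SE) for Zic4 1456417_at and -1.07 ± 1.01 (SE) for Zic2.

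**Figure D3:**
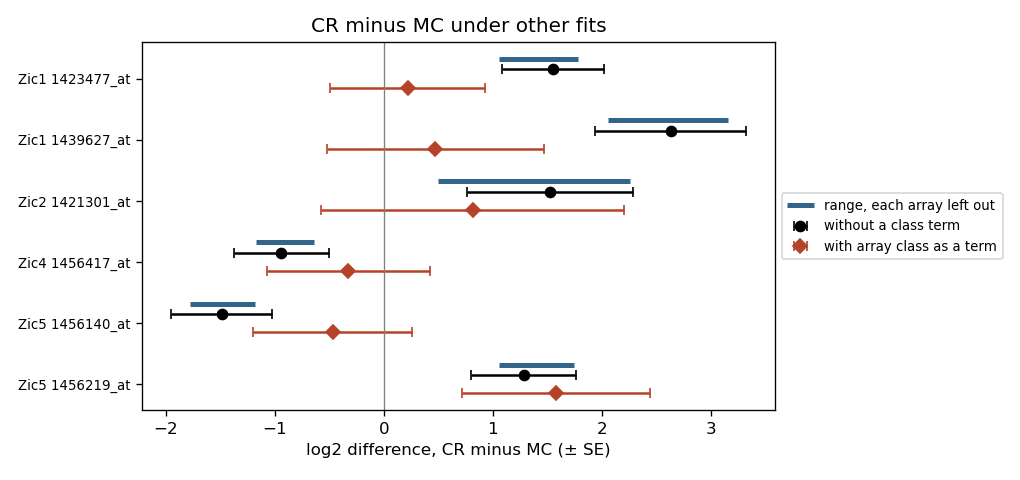
CR minus MC log2 difference of the 6 Zic probe sets past the filter, with its SE, without (circles) and with (diamonds) array class as a term, and the range when each array is left out in turn (bars). With the term both Zic1 probe sets lie within 1 SE of 0, and Zic5 1456219_at stays to the right of it.

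Likeness between probe sets was measured as the root mean square (RMS) difference of log2 values over the 9 arrays, each probe set centred on its own mean. It is a description over arrays that share array class. Among the 15 pairs of probe sets past the filter it ran from 0.59 to 2.03. The most alike were the 2 Zic1 probe sets, at 0.59. The Zic5 probe sets were at 1.43 from each other, and each was nearer to another gene. Zic5 1456140_at was nearest to Zic4 1456417_at, at 0.66, and Zic5 1456219_at to Zic2 1421301_at, its chromosomal neighbour, at 0.74. Both probe sets of this last pair were lowest on MC 2, where Zic2 stood far below its other arrays. Zic1 1423477_at and Zic4 1456417_at, neighbours on chromosome 9, were at 1.28.

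**Figure D4:**
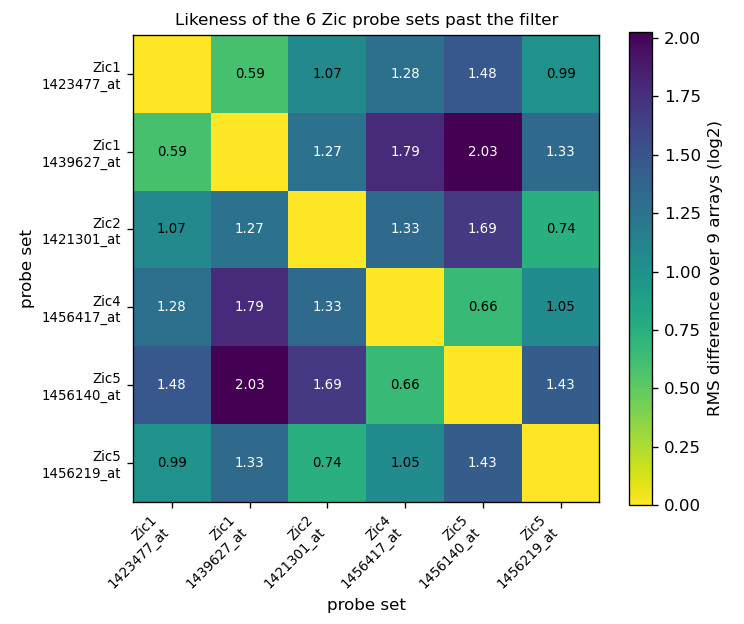
RMS difference of centred log2 values over the 9 arrays for each pair of the 6 Zic probe sets past the filter, with 0 on the diagonal and larger values darker. The smallest value, 0.59, belongs to the 2 Zic1 probe sets and the largest, 2.03, to Zic1 1439627_at with Zic5 1456140_at.

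Outside the family, the same measure was taken against the brightest probe set of every other named gene whose SD over the arrays was at least 0.8 times that of the member. For Zic1 1423477_at, with 2953 candidates, the nearest were Diras2, a Ras-type GTPase gene, at 0.31, Bsn, a scaffold gene of the presynaptic active zone, at 0.39, and Pdxp, a pyridoxal phosphatase gene, at 0.39. For Zic2, with 1898 candidates, they were 3110009E18Rik at 0.26, Klb, the beta-Klotho coreceptor gene, at 0.36, and Kcna5, a potassium channel gene, at 0.41. For Zic4 1456417_at, with 7390 candidates, they were Dysf, the dysferlin gene of muscle membrane repair, at 0.17, Gaa, the lysosomal acid glucosidase gene, at 0.21, and Prkcq, a protein kinase C gene, at 0.22. For Zic5 1456140_at, with 3044 candidates, they were Zfp92, a zinc finger gene, at 0.36, 4930542D17Rik at 0.45 and 4930480K23Rik at 0.47. The likeness to Zic2 rests largely on MC 2, where Zic2 had a log2 value of 6.48, against 9.18 to 10.35 on the other arrays.

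Genes that work with or beside the Zic family were taken from lists. Of 22 Gli and hedgehog genes, 17 passed the filter, and in CR minus MC 8 were higher, 9 lower and none passed the test, with a median of -0.13 against 0.08 over all probe sets. Gli3, the main repressor among the Gli proteins, was at -1.17 ± 0.38 (SE), and Gli2, their main activator, at 1.01 ± 0.65 (SE). The hedgehog targets had both signs, with Gli1 at -0.71 ± 0.71 (SE), the receptor gene Ptch1 at 0.87 ± 0.27 (SE) and Hhip, which encodes a ligand-binding inhibitor, at 1.47 ± 0.73 (SE). Gli2 and Hhip had group means above the filter limit in CR alone, so that they were kept only through the group where they are high. Likewise Gli1 was above the limit in MC alone, with mean log2 values of 9.60 in MC, 8.89 in CR and 8.84 in YC. Its differences from MC therefore carry the same limit. In MC minus YC 10 were higher and 7 lower with a median of 0.10, and Gli1 was at 0.76 ± 0.71 (SE). Of 19 genes of the dorsal patterning list only 8 passed the filter, 5 higher and 3 lower in CR minus MC with a median of 0.43, none past the test. Of the 5 higher genes 1 was Apoe, an apolipoprotein gene rather than a patterning gene, at 0.48 ± 0.62 (SE). The Wnt ligand gene Wnt3a was at -2.17 ± 0.67 (SE) and the homeobox gene Msx1 at -1.32 ± 0.55 (SE), the third lower gene being Pax3, at -0.68 ± 0.50 (SE). Among the higher ones, En2, a homeobox gene of the midbrain and cerebellum, was at 1.24 ± 0.72 (SE) and the BMP ligand genes Bmp7 and Bmp4 at 1.18 ± 0.64 (SE) and 1.10 ± 0.73 (SE).

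Lists of markers of cells that can express Zic genes, and of other cells, were set beside these values. In bulk RNA, fewer cells of a type and less RNA per cell cannot be told apart. Of 17 measured granule neuron genes, 13 were higher in CR and none passed the test, with a median log2 difference of 0.46. Gabra6, a granule cell GABA receptor subunit, was at 2.21 ± 0.54 (SE) and Calb2, the calretinin gene, at 1.58 ± 0.34 (SE), while Pax6, a transcription factor of granule neurons, was at -1.03 ± 0.45 (SE) as 1 of 4 lower genes. Fat2, a cadherin, and Cbln3, a cerebellin, were at 3.46 ± 0.83 (SE) and 2.62 ± 0.98 (SE), but both had group means above the filter limit in CR alone and were kept only through the group where they are high. The summed deposited signal of all 17 granule neuron genes, Fat2 and Cbln3 included, was 56208 to 80118 in CR. It was 30587 to 34343 in MC and 31540 to 38464 in YC. For YC 1, whose Zic1 signal was above those of all MC arrays, the list gave 38464 by summed signal, the highest of YC and above all MC arrays, and -0.27 by median centred log2 value, the lowest of YC, so that the 2 measures place this array differently. Of 16 leptomeningeal genes, markers of the membranes around the brain, 15 were higher in CR, with a median of 0.75 and none past the test. By median centred log2 value they were at 0.42 to 0.67 in CR, against -0.26 to -0.15 in MC and -0.75 to 0.30 in YC, where YC 1 held the 0.30. Their summed signal, led by Ptgds, overlapped between groups, at 199937 to 235104 in CR, 197988 to 342278 in MC and 164118 to 243214 in YC. No marker in these lists was at 0 on any array. As the measured markers had passed the signal filter, this does not show which cells were present. The part of these cells in the Zic values was not tested.

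Of 12 Purkinje cell genes, 2 of which were above the filter limit in CR alone, 10 were higher in CR with a median of 0.74 and none past the test, with a summed signal of 72268 to 135658 in CR, 85756 to 143857 in MC and 59152 to 154080 in YC, where Pvalb, which muscle also expresses, was at -1.49 ± 0.30 (SE). All 9 genes of central glia and myelin were higher in CR, with a median of 0.79, and none passed. Of 15 cochlear fibrocyte genes, whose cells descend from mesenchyme around the ear, 13 were higher in CR with a median of 0.91 and none past the test. By their summed signal YC 1 was the highest of YC, at 236242. Car3, the brightest of these genes and so a large part of that sum, was at 0.04 ± 0.17 (SE) in CR minus MC. Of 9 genes of the stria vascularis, 7 were higher in CR, with a median of 0.72. Of 16 spiral ganglion genes, Calb2 again among them, 8 were higher and 8 lower, with a median of -0.02. Of 9 hair and supporting cell genes, 5 were higher and 4 lower, with a median of 0.13. None of these 3 lists had a gene past the test. Skeletal muscle genes, like Zic4 1456417_at and Zic5 1456140_at, were lower in CR than in MC. All 18 muscle genes were lower in this comparison, 13 past the test, with a median of -2.11. In CR minus YC all 18 were also lower, with a median of -1.69 and none past the test. There Zic4 1456417_at was at -0.48 but Zic5 1456140_at at 0.47. The summed signal of the muscle genes was 340832 to 517411 in CR, against 1122176 to 1812052 in MC and 780656 to 1748141 in YC.

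**Figure D5:**
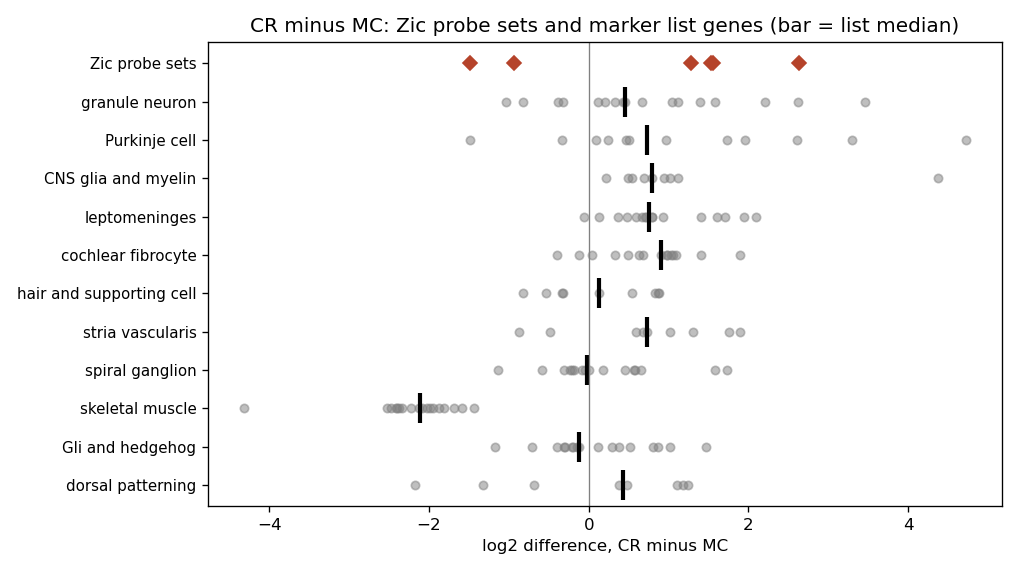
CR minus MC log2 difference of the 6 Zic probe sets past the filter (diamonds) and of each measured gene of 11 marker and pathway lists (points), with a bar at each list median. The Zic probe sets fall on both sides of 0, and the list medians run from -2.11 for skeletal muscle to 0.91 for cochlear fibrocytes.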

How the data were processed

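RNA of 9 pools of cochleae was measured on 1-colour arrays. The deposited table holds a linear intensity for each probe set, and GCOS 1.3 is named per the submitters' processing notes. Its algorithm and scaling target: not given in the sources used here. Each array's mean after trimming lay between 1494 and 1496, while array medians differed 2.10-fold. As this exceeded 1.5-fold, log2(signal + 16) was quantile normalized, a scale that makes differences of dim probe sets look smaller. A signal filter removed those whose mean log2 value was under the 40th percentile and left 27022. All 9 arrays were fitted in limma 3.58.1 (R 4.3.3; lmFit, eBayes with a variance trend), with Benjamini-Hochberg adjustment over all kept probe sets. The 2 dim members come from the same fit without the filter. With 3 arrays a group, the median SE of a log2 difference was 0.43, which limits the precision. The fit was run on simulated data with independent noise of equal spread for all probe sets and no array class. That run therefore does not cover the overlap of CR and MC with array class.

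The platform annotation gave 1 symbol for 34945 probe sets, of which 34741 matched RefSeq, several for 932 and none for 9160. All Zic probe sets are named, with the 3 genes most like each member. From each list, represented by its brightest probe set per gene, the 2 brightest genes and, for 3 lists, those with the largest differences could be named. Hair cell genes on either side of the filter, Pax6, the CR minus MC values of Gli1, Pax3 and Bmp4, and 2610035F20Rik were named after their values or places were seen. The members, lists, tests and alternatives were chosen with earlier results of these data known. Array class divides the arrays at the largest gap between their medians. Promoter sequences are from RefSeq, and none was at hand for Zic2.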

Additional observations from a re-analysis of the deposited data

How the results depend on the processing

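For CR minus MC, each of the 6 Zic probe sets past the filter kept its sign under every alternative run, which were other pseudocounts, filters, scalings and weights, a replicate block, a term for array class or for the array median, only the compared groups, and each array left out. The count of all probe sets called in CR minus MC was 25. It was 0 in fits with the replicate block, with a class term, with a median covariate, with median centring or with no variance trend, and 7 in the table as deposited. It was 3397 with array weights, whose estimation stopped before its tolerance, and 1873 with only the compared groups. In the main fit 27022 probe sets were tested. Leaving out 1 array gave 0 to 1075, the highest without YC 2. It was 249 without YC 1, 48 without MC 2, 2 without CR 1 and 0 without CR 2, CR 3, MC 1 or MC 3. Among the Zic probe sets, array weights called Zic1 1439627_at, Zic5 1456140_at and Zic5 1456219_at, the Zic5 probe sets with opposite signs. The compared groups alone called both Zic1 probe sets and Zic5 1456140_at, and the fit without YC 2 called 1 Zic probe set. Nothing is read from these calls, as the members were picked with these contrasts known. In CR minus YC the count of all probe sets called was 0 in the main setting, 3 among low-median arrays and 0 to 367 on leaving out 1 array, the highest without YC 1, with 5 without MC 2. The cause of these shifts was not tested. In MC minus YC it was 0 under every alternative run.

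Signs turned as follows, and the cause was not tested. For Zic1 1423477_at, MC minus YC was -0.36 with centred arrays, -0.14 as deposited, -0.16 with array weights and -0.33 to 0.49 on leaving out 1 array, negative without MC 1, YC 2 or YC 3. For Zic1 1439627_at, MC minus YC was 0.040 with the class term, 0.019 among high-median arrays and -1.30 to 0.036 on leaving out 1 array, positive without YC 1. For Zic2, CR minus YC was -0.16 as deposited, -0.28 with array class as a term, -0.35 among low-median arrays and -0.021 to 0.42 on leaving out 1 array, negative without YC 3. For Zic5 1456219_at, CR minus YC was -0.056 as deposited. The dim Zic4 1421539_at, CR minus MC, was 0.14 with the class term, 0.34 with the median covariate and -0.96 to 0.86 on leaving out 1 array, positive without CR 1, CR 2 or MC 1. The dim Zic5 1425666_at, MC minus YC, was -0.38 with array weights, -0.66 with the class term, -0.40 with the covariate, -0.61 among high-median arrays and -0.84 to 0.61 on leaving out 1 array, negative without MC 3 or YC 1. Its CR minus MC was 1.46 with the class term, 0.65 with the covariate and -1.60 to 0.30 on leaving out 1 array, positive without CR 2 or MC 3. Its CR minus YC was 0.80 with the class term, 0.25 with the covariate, 0.83 among low-median arrays and -1.59 to 0.042 on leaving out 1 array, positive without CR 2 or YC 2. At the 60th percentile filter only the 2 Zic1 probe sets and Zic4 1456417_at remained. Over all probe sets tested, the replicate numbers showed no pairing of the arrays. Same-numbered arrays of different groups deviated from their group means with correlations from -0.29 to 0.27. Of 9 arrays, 0 correlated best with their own number in both other groups. For both Zic1 probe sets, however, CR 1, MC 1 and YC 1 were each the highest of their group. With a replicate block the SE of their MC minus YC was 0.28 and 0.36, against 0.47 and 0.69 without it. That SE was 0.72 against 0.76 for Zic2 and 0.44 against 0.43 for Zic4 1456417_at. It was 0.46 against 0.46 for Zic5 1456140_at and 0.52 against 0.48 for Zic5 1456219_at.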
